A study of Mus musculus with 4 samples.

Results

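The genes of the proteasome were examined for H3K79me2, the dimethylated form of lysine 79 of histone H3, in mouse thymocytes grown with or without an inhibitor of SCD1, a stearoyl-CoA desaturase. The set held every protein-coding gene of the RefSeq mouse table whose symbol begins with Psma, Psmb, Psmc, Psmd or Psme followed by a number. No measured value entered this rule, but the genes were chosen with earlier results of these data known. The rule gave 46 of 21887 protein-coding genes. Of these, 43 code for subunits, assembly chaperones or activators of the proteasome. The other 3, Psmc3ip, Psme3ip1 and Psme2b, entered by the start of the symbol, are not counted among these and are given apart.

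The 26S proteasome is the barrel-shaped protease that degrades ubiquitin-tagged proteins. Its 20S core is a stack of rings of alpha subunits, which gate the barrel, and beta subunits, some of which cut the protein chain. The 19S cap binds ubiquitin chains and, with a ring of ATPases, unfolds the substrate and feeds it into the core. Lymphocytes can exchange the cutting subunits for the immunoproteasome forms, which change the peptides available for MHC class I molecules. H3K79me2 is laid down by the methyltransferase Dot1l behind elongating RNA polymerase II and is known as a mark of the 5′ part of transcribed genes.

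The cells were haematopoietic stem cells (HSCs) of C57BL/6 mice, grown on OP9-DL1 cells, a bone marrow stromal line that displays the Notch ligand Delta-like 1, with the cytokines Flt-3L and IL-7. They were collected at the DN3 stage, the double-negative stage at which thymocytes rearrange the T-cell receptor beta gene. The control cells were grown with the vehicle DMSO and the inhibitor cells with A939572, and each condition had 1 ChIP library. The dose and timing of the inhibitor, the number of animals behind each culture and the removal of stromal cells before collection were not given in the sources used here. There were also 2 input libraries, which are not analysed here.

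Each ChIP library had 1 list of broad peaks, whose entries are called control peaks for DMSO and inhibitor peaks for A939572. The DMSO library held 124962 peaks and the A939572 library 35018, but they covered almost the same length of genome, 235 Mb and 234 Mb. A strong peak is here one with q of at most 0.05 in the authors' column, and these numbered 804 in the DMSO library and 6528 in the A939572 library. Most control coverage thus came from weak peaks. The number of reads behind each list is unknown, so a difference between the lists cannot be told apart from a difference in depth or in the efficiency of the precipitation. With 1 library per condition there was no replicate check and no test was possible. The values below compare these libraries, and the intervals are 95% Wilson intervals that cover counting error over genes only.

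The cell type label was checked against marker genes. Of 12 DN3 markers, 8 were covered over at least 50% of the gene body in the DMSO library and 11 in the A939572 library. Bcl11b, a transcription factor of T-cell commitment, was covered over 94.0% in the DMSO library and 100% in the A939572 library. Ptcra, which codes for the alpha partner in the pre-T-cell receptor, had only weak peaks, over 18.1% and 47.1%. None of 8 markers of the OP9 stroma was covered to that extent in the DMSO library and 1 was in the A939572 library, Thbs1 at 59.0%. Pdgfrb, a receptor of stromal cells, was covered over 9.18% and 45.3%, and like Thbs1 it had a strong inhibitor peak. Of the other 6 stromal markers, none had a peak in the A939572 library, and Dcn (15.3%), Lum (7.94%) and Col1a2 (1.09%) had weak control peaks. None of 8 markers of thymic epithelium and none of 4 B-cell markers reached 50% in either list. Of 4 macrophage markers 1 did, Cd68 in the A939572 library. Over all protein-coding genes the shares at this threshold were 5.47% and 26.1%, so with so few markers the low counts of the other cell types do not set them apart from coding genes in general. The part of other cells in the values below was not tested.

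Most proteasome genes lay under broad strong peaks in the A939572 library and under short weak peaks in the DMSO library. A gene is called marked where peaks cover at least 50% of its body. In the DMSO library 3 of the 46 genes were marked (6.52%, interval 2.24 to 17.5%), against 5.47% of all protein-coding genes, so the share of marked genes was near the background. In the A939572 library 35 of 46 were marked (76.1%, interval 62.1 to 86.1%), against 26.1% of all protein-coding genes. With strong peaks alone the counts were 0 and 30 of 46, against backgrounds of 1.33% and 19.6%. The median covered percent of the 46 genes was 16.7% in the DMSO library and 79.997% in the A939572 library, against 2.24% and 0.446% over all protein-coding genes. Their median difference, inhibitor minus control, was 51.7 points, against 0 over all protein-coding genes.

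Counted by overlap alone, 36 of the 46 genes met a peak of any strength in the DMSO library and 44 in the A939572 library, where the backgrounds were 55.3% and 51.4%. A strong peak overlapped 6 genes in the DMSO library and 43 in the A939572 library, against 3.92% and 34.7% of all protein-coding genes. The 43 genes comprised all 41 genes for subunits, chaperones and activators other than the tissue-restricted Psma8 and Psmb11, together with Psmc3ip and Psme3ip1. Coverage was at least 25 points higher in the A939572 library for 40 of 46 genes, against a background of 30.1%, and at least 25 points higher in the DMSO library for 0 of 46, against 3.07%. The proteasome genes were shorter than coding genes in general, with a median length of 10.8 kb against 17.2 kb. The part of length in the shares of marked genes was not tested.

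**Figure D1:**
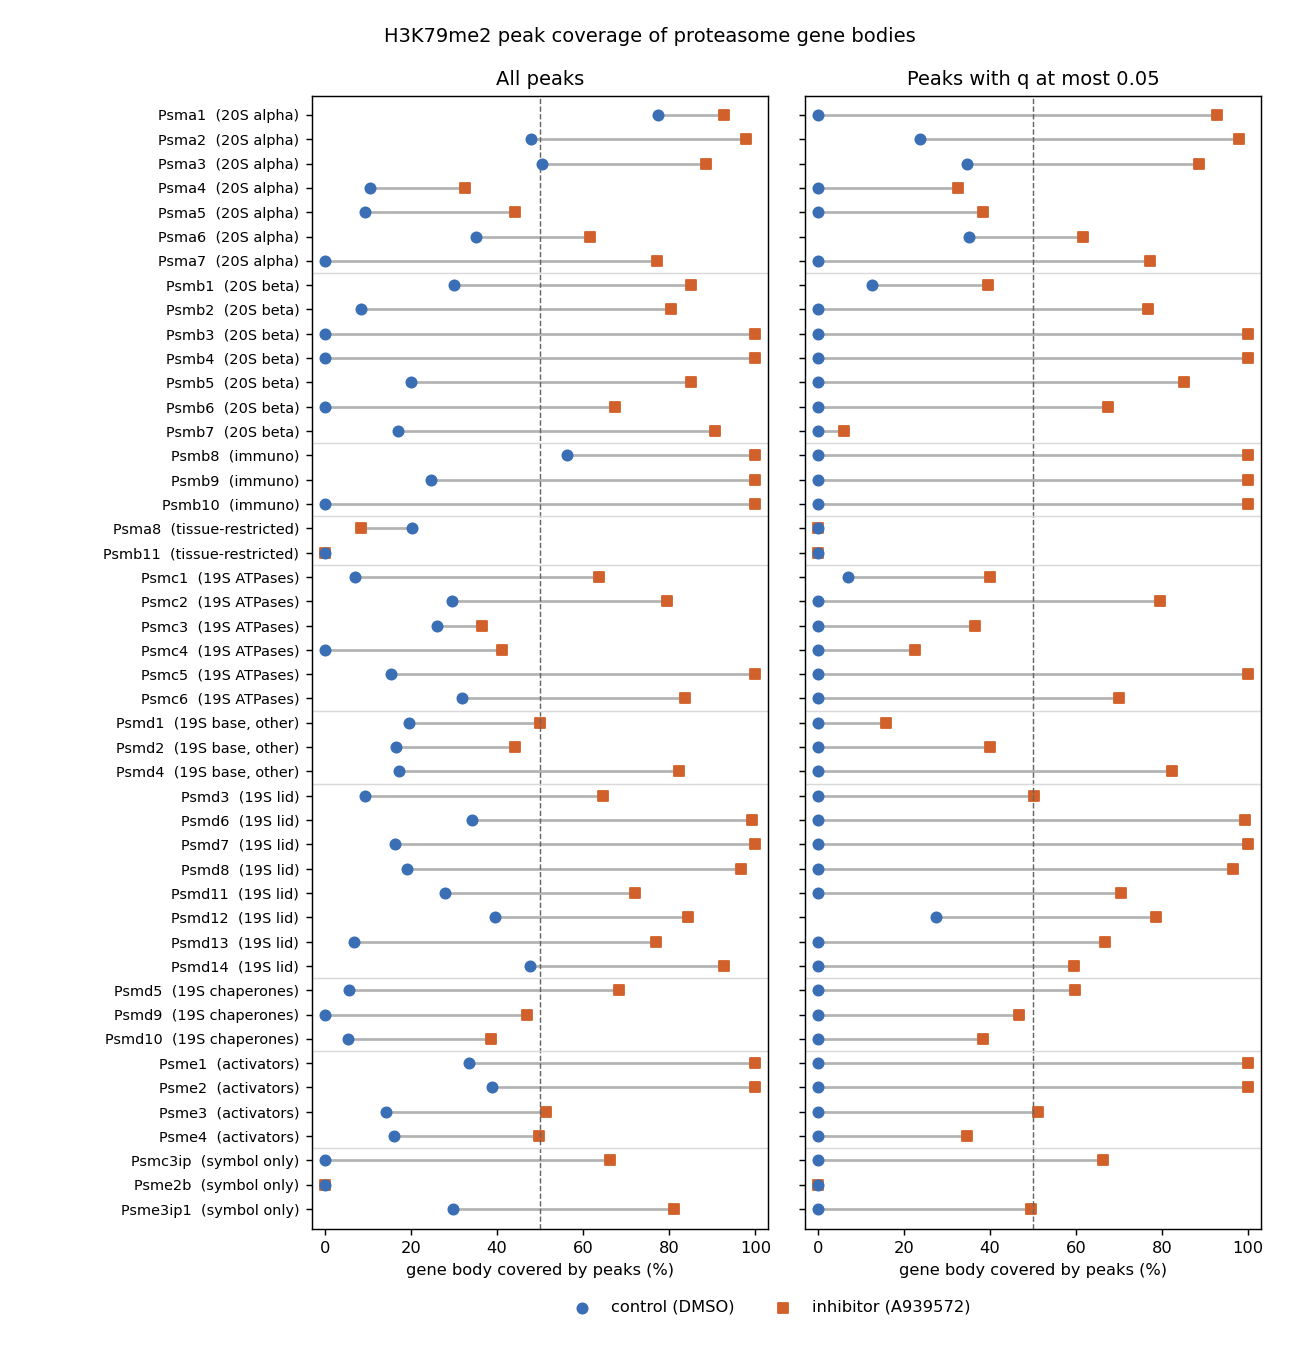
Covered percent of the gene body (x axis, %) of each of the 46 genes in the DMSO and the A939572 library, for all peaks and for strong peaks (q at most 0.05), 1 row per gene and grouped by class. Points are single libraries, and equal values lie on each other. In the panel of all peaks the inhibitor point lies to the right of the control point in all genes except Psma8, where it lies to the left, and Psmb11 and Psme2b, which are at 0 in both lists.

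The alpha subunits of the 20S core, Psma1 to Psma7, form the outer rings of the barrel. Of these 7 genes, 2 were marked in the DMSO library and 5 in the A939572 library. The backgrounds for this and each class below are 5.47% and 26.1% of all protein-coding genes, or 1.33% and 19.6% with strong peaks alone. With so few genes, a class without a marked gene in the DMSO library is near the background. Psma1 (chr7:114264550-114276116) was covered over 77.4% in the DMSO library and 92.7% in the A939572 library, the highest control value of the set with all peaks. Its difference of 15.3 points was the smallest of the alpha genes with all peaks. All of its control coverage came from weak peaks, with −log10 q of at most 1.08, and with strong peaks alone its difference was the largest of the alpha genes, 92.7 points. Psma3 was covered over 50.3% and 88.5%, and a strong control peak of 9.23 kb lay within its strong inhibitor peak of 29.1 kb. Psma2 was just under the threshold in the DMSO library, at 47.9%, and was covered over 97.8% in the A939572 library. Its strong peaks in both lists also reached Mrpl32.

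Psma6 was covered over 35.2% in the DMSO library, all of it by 1 strong peak of 12.0 kb. In the A939572 library it was covered over 61.6% by a peak with −log10 q of 13.7, the highest of any peak assigned to the set. Psma7 lacked control peaks and reached 77.1% in the A939572 library, the largest difference among the alpha genes with all peaks and, after Psma1, the next largest with strong peaks alone. The strong inhibitor peak on Psma7 also reached Ss18l1. The alpha genes below 50% in the A939572 library were Psma4 and Psma5. Psma4 was covered over 10.4% and 32.6%, and its body overlaps another coding gene. Psma5 was covered over 9.39% and 44.1%. Both carried a strong inhibitor peak over the start of the gene.

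The beta subunits Psmb1 to Psmb7 form the inner rings, and Psmb5, Psmb6 and Psmb7 hold the chymotrypsin-like, caspase-like and trypsin-like cutting sites. None of the 7 genes was marked in the DMSO library and all 7 were in the A939572 library. Psmb3 and Psmb4 had no control peak and were covered over 100% in the A939572 library, a difference of 100 points each. The peak on Psmb3 also reached Pip4k2b and that on Psmb4 also reached Pogz. Psmb1 had the smallest difference of the class with all peaks, 55.1 points, with 29.9% in the DMSO library and 85.1% in the A939572 library. Its control coverage included a strong peak of 2.83 kb with −log10 q of 2.92, the highest of the strong control peaks in the set. The strong inhibitor peak on Psmb1 also reached Tbp. The median control value was 8.35% for the beta genes and 35.2% for the alpha genes, with no test of that difference possible.

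Among the genes of the cutting subunits, Psmb5 was covered over 20.1% and 85.2%, and Psmb6 over 0% and 67.4%. The Psmb6 peak was the narrowest main peak of the set, 1.71 kb on a gene of 2.54 kb. Psmb7 was covered over 17.0% and 90.6%, but most of the inhibitor coverage came from 1 weak peak of 47.3 kb. Strong inhibitor peaks alone covered 6.07% of Psmb7, the smallest strong-peak difference of the beta genes, through a peak of 4.39 kb at the end of the gene with the higher coordinates. Psmb7 therefore counts as marked only when weak peaks are included.

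The immunoproteasome genes Psmb8, Psmb9 and Psmb10 code for the inducible replacements of the constitutive cutting subunits. All 3 were covered over 100% in the A939572 library by strong peaks. In the DMSO library Psmb8 was covered over 56.3%, Psmb9 over 24.5% and Psmb10 over 0%, by weak peaks only. The differences were 43.7 points for Psmb8, 75.5 points for Psmb9 and 100 points for Psmb10. Psmb8 and Psmb9 lie in the MHC class II region with 10.9 kb between them, and 1 inhibitor peak of 37.3 kb (chr17:34181397-34218721) covered both. That peak also covered Tap1 and Tap2, which code for the peptide transporter of MHC class I loading, so its coverage cannot be given to any 1 of the 4 genes. The Psmb10 peak, of 4.14 kb, also reached Lcat and had the lowest fold enrichment of the main peaks, 2.14 in the authors' column.

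Psmb11 codes for beta5t, the cutting subunit found in the epithelium of the thymic cortex, where it shapes the peptides that select CD8 T cells. Its gene (chr14:54625310-54629556) lies 7.31 kb from that of Psmb5 (chr14:54614120-54617995), the subunit whose place it takes. Psmb11 had no peak of any strength in either list. The strong inhibitor peak on Psmb5 covered the start of Psmb5 and ended 0.018 kb upstream of it. The marker list of thymic epithelium was also without coverage of 50% in both lists, with Foxn1 and Prss16, its defining genes, at 0, and Ccl25, at 19.5% in the A939572 library, the 1 gene of the list with a strong peak. The 200 bases before each start are shown because the pair are neighbours of which 1 had peaks and the other none, with chr14:54617996-54618195 on the minus strand for Psmb5 and chr14:54625110-54625309 on the plus strand for Psmb11 (RefSeq, GRCm38.p6). Capitals mark a match to the core of the antioxidant response element, TGACNNNGC, in Psmb5 and to the NF-Y box, CCAAT, in Psmb11.

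Psmb5: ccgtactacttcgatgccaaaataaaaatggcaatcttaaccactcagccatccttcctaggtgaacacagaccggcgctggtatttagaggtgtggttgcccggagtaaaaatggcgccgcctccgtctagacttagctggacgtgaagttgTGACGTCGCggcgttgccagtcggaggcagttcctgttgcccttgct
Psmb11: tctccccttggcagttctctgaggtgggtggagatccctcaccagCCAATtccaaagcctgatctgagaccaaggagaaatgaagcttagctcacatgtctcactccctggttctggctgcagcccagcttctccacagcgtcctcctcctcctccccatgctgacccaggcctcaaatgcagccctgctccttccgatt

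The caps of the proteasome begin with the ATPases Psmc1 to Psmc6, the ring that pulls the substrate into the core. None of these 6 genes was marked in the DMSO library and 4 were in the A939572 library, against 5.47% and 26.1% of all protein-coding genes. Psmc5 showed the largest difference of the class, from 15.4% to 100%, under a peak of 20.8 kb that also reached Ftsj3, Smarcd2 and Tcam1. With all peaks, Psmc3 showed the smallest difference of all 41 genes for subunits, chaperones and activators other than the tissue-restricted pair, from 26.0% to 36.5%. With strong peaks alone it went from 0% to 36.5%, and Psmc4 had the smallest difference of the ATPase genes. The strong inhibitor peak of Psmc3 was 3.20 kb wide and extended past the end of that gene with the lower coordinates. Psmc4 had no control peak and 41.2% coverage in the A939572 library, of which strong peaks gave 22.5%. Psmc1 was covered over 6.97% in the DMSO library, all of it by a strong peak of 0.917 kb, and over 63.7% in the A939572 library.

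The cap base also holds Psmd1 and Psmd2, the large scaffold subunits, and Psmd4, a ubiquitin receptor. None was marked in the DMSO library. Psmd1 was just above the threshold in the A939572 library, at 50.04% against 19.6% in the DMSO library, and strong peaks alone covered 15.9%. The gene is 74.7 kb long, and its body overlaps another coding gene. Its strong inhibitor peak ended 11.9 kb past the start, and a weak inhibitor peak of 21.1 kb on Psmd1 also reached Htr2b. Psmd2 was covered over 16.4% and 44.2%, the smallest difference of the 3 with all peaks. With strong peaks alone the smallest was that of Psmd1, 15.9 points against 39.9 points for Psmd2. Psmd4 was covered over 17.1% and 82.3%, the largest under both definitions.

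The lid of the cap removes the ubiquitin chain, through the metalloprotease coded by Psmd14. None of the 8 lid genes was marked in the DMSO library, and all 8 were in the A939572 library, with all peaks and with strong peaks alone. Psmd7 showed the largest difference, from 16.3% to 100%. Psmd11 showed the smallest with all peaks, from 28.0% to 72.0%, and Psmd3 the smallest with strong peaks alone, 50.1 points. Psmd14 was covered over 47.6% in the DMSO library by weak peaks and over 92.7% in the A939572 library, where its strong peak of 54.2 kb was the widest of the set. Psmd12 was covered over 39.5% and 84.3%, and its control coverage included a strong peak of 6.05 kb. The other lid genes, Psmd3, Psmd6, Psmd8 and Psmd13, lay between 6.87% and 34.1% in the DMSO library and between 64.5% and 99.3% in the A939572 library.

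Psmd5, Psmd9 and Psmd10 code for chaperones that help to assemble the cap base and leave the finished particle. Coverage of these 3 genes was lower in both lists than the medians of the cap subunits, 19.1% and 79.5%. Psmd5 was covered over 5.63% and 68.3%, the largest difference of the 3. Psmd9 was covered over 0% and 46.9%. Psmd10, whose body overlaps another coding gene, was covered over 5.48% and 38.5%, the smallest difference of the 3. Each had 1 strong inhibitor peak, and Psmd5 alone was marked.

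The activators open the core without the 19S cap. Psme1 and Psme2 form PA28alpha-beta, an interferon-inducible ring, Psme3 forms the nuclear PA28gamma, and Psme4 codes for PA200. Psme1 was covered over 33.5% and 100% and Psme2 over 38.8% and 100%. These neighbours lie 5.91 kb apart on chromosome 14 and had separate strong inhibitor peaks, of 4.79 kb on Psme1 and 11.5 kb on Psme2. The peak on Psme1 also reached Emc9 and that on Psme2 also reached Rnf31. The body of Psme1 overlaps another coding gene. Psme3 was covered over 14.2% and 51.3%, under a short peak of 3.93 kb with the highest fold enrichment of the main peaks, 4.54. Psme4 was covered over 16.1% and 49.8%, just below the threshold, on a gene of 109 kb whose body overlaps another coding gene.

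Psma8 codes for the alpha subunit of the testis proteasome and was the only one of the 46 genes with more coverage in the DMSO library. It was covered over 20.3% in the DMSO library and 8.36% in the A939572 library, a difference of −11.9 points, and no peak on it was strong in either list. Of the 11.4 kb of control coverage on Psma8 and Psmb11 together, 8.55% also lay under inhibitor peaks. Of 6 markers of germ cells, 3 were at least 25 points higher in the DMSO library, against 3.07% of all protein-coding genes. In the A939572 library 1 was at least 25 points higher, against 30.1%. Dazl was covered over 56.4% and 0%, Sycp3 over 37.7% and 0%, and Ddx4 over 27.8% and 0.683%, all by weak peaks. Sycp1 was covered over 11.5% and 0.393%, and Stra8 had no coverage in either list. Zbtb16, which is also expressed outside the germ line, went the other way, from 19.2% to 84.7%.

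The 3 genes matched by symbol only were not alike. Psmc3ip, which codes for a partner of the meiotic recombinases, was covered over 0% and 66.3%, under a peak that also reached Retreg3. Psme3ip1, which codes for a binding partner of PA28gamma, was covered over 29.7% and 81.2%. Psme2b, a paralogue of Psme2, had no peak in either list. The bodies of all 3 overlap another coding gene. Without these 3 genes, 3 and 33 of 43 were marked in the DMSO and A939572 libraries.

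**Figure D2:**
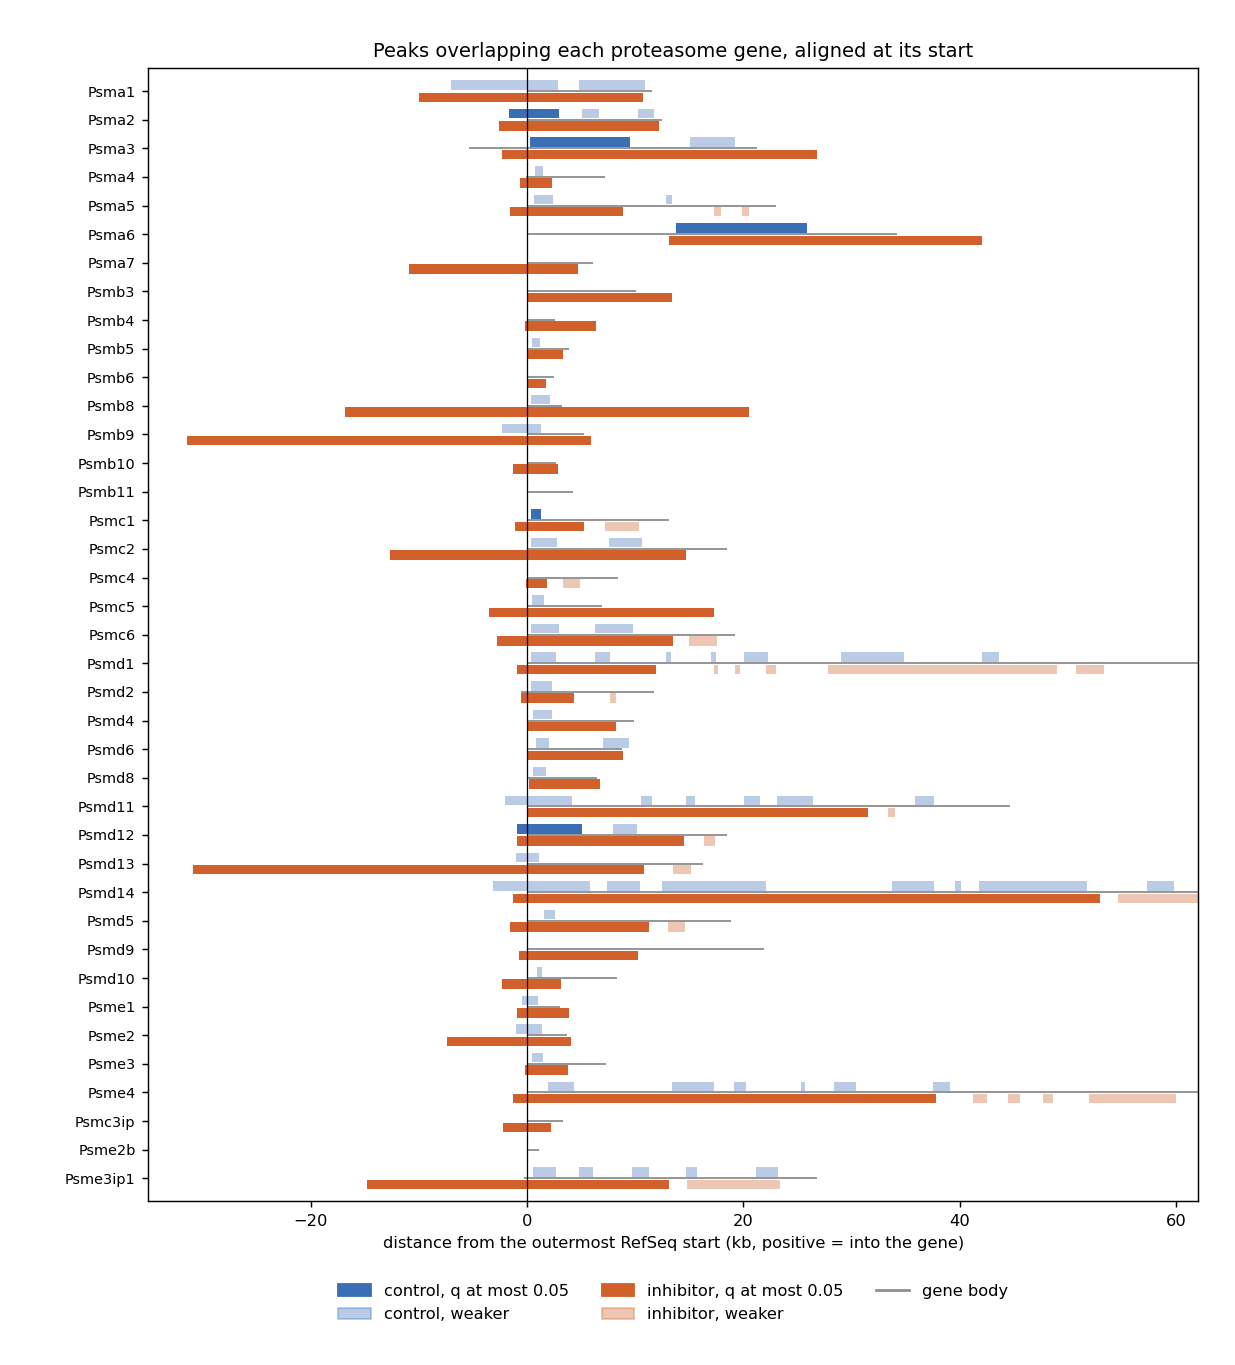
Peaks at the 39 genes with a RefSeq start, by distance from the start in kb (x axis, positive into the gene), 1 row per gene, with strong and weaker peaks of each list and the gene body as a grey line. The long genes Psmd1, Psmd14 and Psme4 run past the right edge. Inhibitor peaks form single blocks over the 5′ part of most genes, while control peaks are shorter and mostly weak.

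The position of the peaks along the genes was examined for the 39 genes with a RefSeq start. A point 1 kb past the start lay under a control peak of any strength in 26 of 39 genes (66.7%, interval 51.0 to 79.4%), against 19.1% of protein-coding genes, and under an inhibitor peak in 36 of 39, against 41.2%. At this point the share in the DMSO library was above the background, unlike the share of marked genes. With strong peaks alone the counts were 4 and 36 of 39, against 3.35% and 32.1%. The 3 genes without an inhibitor peak there were Psma6, Psmb11 and Psme2b. The first 5 kb of the gene, or the whole of a shorter gene, was marked in 8 of 39 genes in the DMSO library and 35 in the A939572 library, against 13.8% and 37.3%. With strong peaks alone it was marked in 3 and 34 of 39, against 3.11% and 30.3%.

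**Figure D3:**
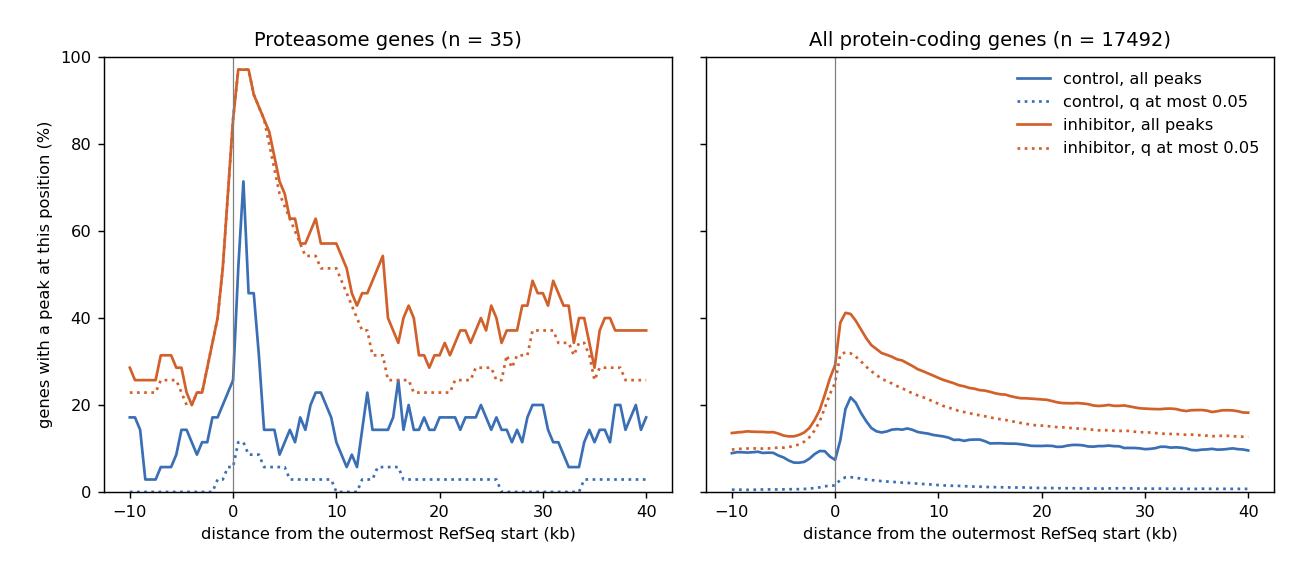
Share of genes (y axis, %) with a peak at each distance from the RefSeq start (x axis, kb) for 35 proteasome genes, without the tissue-restricted and symbol-only genes, and for all protein-coding genes, in both lists, for all and for strong peaks. At 1 kb past the start 71.4% of the proteasome genes lay under a control peak and 97.1% under an inhibitor peak.

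The 8 genes whose first 5 kb was marked in the DMSO library were Psma1, Psma2, Psma3, Psmb8, Psmc6, Psmd11, Psmd12 and Psmd14. For Psmd12 it was covered over 100% in both libraries, with all peaks and with strong peaks alone. For Psmd14 it was covered over 100% in both libraries with all peaks, but strong peaks alone covered 0% in the DMSO library and 100% in the A939572 library. For Psma3 it was covered over 94.2% in the DMSO library and 100% in the A939572 library. For Psmd11 it was covered over 82.9% and 100% with all peaks, and over 0% and 100% with strong peaks alone. With all peaks, the whole-body differences of these 4 genes, of 38.2 to 45.2 points, lay mostly outside the first 5 kb. For Psma3, Psmd11 and Psmd14, of 26.6, 44.6 and 88.7 kb, this followed from gene length, as 5 kb could not hold most of the difference. The same held for them with strong peaks alone. Psma6 was covered over 0% of its first 5 kb in both lists when counted from its outermost start, but a second RefSeq start of that gene, 55398825 on chromosome 12, lay under strong peaks of both lists.

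The main inhibitor peak of a gene is the strong peak with the largest overlap. These peaks were 1.71 to 54.2 kb wide, with a median of 11.5 kb against 14.1 kb for all strong inhibitor peaks. Their median −log10 q was 6.19 (range 2.06 to 13.7), against 4.01 for all strong inhibitor peaks, and their median fold enrichment was 3.05, against 2.81. These strengths are the authors' own values. Of the 43 main peaks, counted per gene, 25 reached no other coding gene and 18 did.

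Of the 37 genes with a main peak and a RefSeq start, 32 had the start inside the peak. The other 5 were Psma6, Psmb6, Psmd4, Psmd6 and Psmd8, and for all of these except Psma6 the peak began at most 0.221 kb past the start. Among the 32, the peak reached the end of the gene in 9 and stopped before it in 23. Of the 14 genes under 10 kb, 7 were covered to the end, and the median reach was 92.6% of the distance from start to end. Of the 18 genes of at least 10 kb, 2 were covered to the end, the median reach was 63.3%, and the median edge lay 12.6 kb past the start. In Psme4 the peak ended 37.8 kb past the start of a gene of 109 kb, and in Psmd14 it ended 52.9 kb into 88.7 kb. The genes below or close to the 50% threshold included long genes with a strong peak at the start, such as Psme4 and Psmd1. They also included the shorter genes Psma4 (7.25 kb), Psmc3 (5.42 kb), Psmc4 (8.39 kb) and Psmd10 (8.29 kb). The part of gene length in missing the threshold was not tested.

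**Figure D4:**
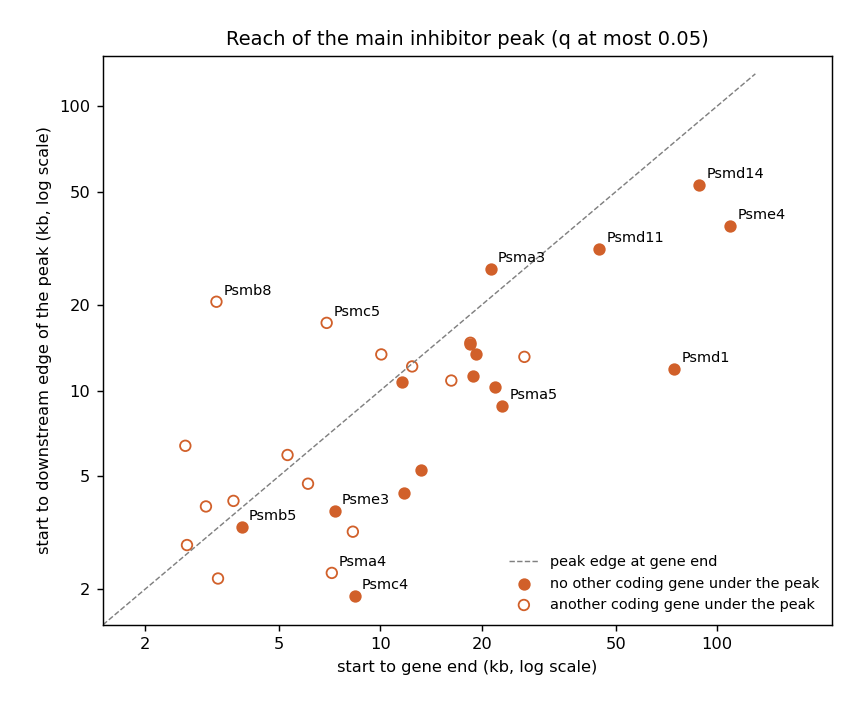
Distance from the RefSeq start to the downstream edge of the main inhibitor peak (y axis, kb, log scale) against the distance from the start to the end of the gene (x axis, kb, log scale), 1 point per gene. Points on or above the diagonal reach the end of the gene. Long genes such as Psmd1, with an edge at 11.9 kb of 74.7 kb, lie far below it.

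Strong control peaks lay on 6 genes, Psma2, Psma3, Psma6, Psmb1, Psmc1 and Psmd12, against the background of 3.92% given above. Each overlapped a strong inhibitor peak, and all 6 also did when an overlap of at least 50% of the shorter peak was asked for. In 5 of them the control peak lay wholly within the inhibitor peak, and in Psmd12 99.2% of it did. Their −log10 q was between 1.32 and 2.92 in the DMSO library. The inhibitor peaks at the same genes had −log10 q between 7.09 and 13.7. With strong peaks alone, 0 of 21887 protein-coding genes were at least 25 points higher in the DMSO library. The lowest difference among all of those genes was −5.88 points. Strong control coverage inside strong inhibitor coverage is therefore not read as a trait of these 6 genes.

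The 200 bases before the starts of Psma2 (chr13:14613042-14613241, plus strand) and Psmd12 (chr11:107479328-107479527, plus strand) are shown because they lie inside strong peaks of both lists (RefSeq, GRCm38.p6). Those of Psmb9 (chr17:34187331-34187530, minus strand) are shown as the start of an immunoproteasome gene inside the shared inhibitor peak on chromosome 17. Capitals mark the match to the site of the nuclear respiratory factor and the NF-Y box in Psma2 and the NF-Y box, read on the other strand, in Psmb9. No motif searched fell within the stretch of Psmd12.

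Psma2: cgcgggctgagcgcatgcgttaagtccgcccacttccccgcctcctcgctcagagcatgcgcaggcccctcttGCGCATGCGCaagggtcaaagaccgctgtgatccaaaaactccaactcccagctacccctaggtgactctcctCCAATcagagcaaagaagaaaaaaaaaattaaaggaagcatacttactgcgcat
Psmd12: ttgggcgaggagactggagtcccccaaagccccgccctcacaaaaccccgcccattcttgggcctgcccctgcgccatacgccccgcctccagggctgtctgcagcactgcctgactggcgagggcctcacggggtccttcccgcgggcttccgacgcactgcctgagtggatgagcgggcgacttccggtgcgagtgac
Psmb9: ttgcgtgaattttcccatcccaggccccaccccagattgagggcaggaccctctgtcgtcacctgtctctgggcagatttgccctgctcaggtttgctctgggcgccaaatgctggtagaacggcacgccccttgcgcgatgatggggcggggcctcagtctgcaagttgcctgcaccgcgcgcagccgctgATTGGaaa

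Promoter windows from 250 bases before to 50 bases after the start were searched on both strands, for 43 windows of the 39 genes and 21263 windows of 17492 protein-coding genes. The antioxidant response element core TGACNNNGC, the kind of site bound by the Nfe2l1 protein that raises proteasome genes, was found in 6 of 43 windows (14.0%), against 13.0% of all windows. The NF-Y box CCAAT was found in 16 of 43 (37.2%), against 38.2%. The site of the nuclear respiratory factor, spelled by the first run of capitals in Psma2, was found in 1 of 43 (2.33%), against 1.33%. These shares were near those of all promoters. A match is a string of letters in the window and was not tested as a binding site.

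The control coverage of the proteasome genes lay mostly inside the inhibitor coverage. For the 41 genes without the tissue-restricted and symbol-only genes, 91.8% of the bases under control peaks were also under inhibitor peaks, where inhibitor peaks covered 71.5% of all bases of these genes. Over all protein-coding genes 54.3% of the control-covered bases were also under inhibitor peaks, which covered 20.1% of the bases. Strong inhibitor peaks covered 78.0% of the control-covered bases of the 41 genes and 44.4% of those of all protein-coding genes.

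Genes that build, control or supply the proteasome under other symbols were counted in the same way, and their counts are to be read against the 5.47% and 26.1% of all protein-coding genes that were marked, which have the same order. Of 10 measured genes for assembly factors and other subunits, 2 were marked in the DMSO library and 8 in the A939572 library, and the median difference was 39.3 points. Psmg2, an assembly chaperone of the alpha ring, was covered over 23.2% and 100%, and Pomp, which assists beta subunit entry, over 0% and 73.0%. With all peaks, the smallest difference was that of Akirin2, which helps to bring proteasomes into the nucleus, at 87.9% and 100%. The next smallest was that of Ecpas, a scaffold that binds proteasomes, at 39.5% and 59.5%. Strong peaks alone covered 0% and 100% of Akirin2 and 0% and 47.1% of Ecpas. They covered 0% of Psmg1 and Psmg4 in both lists.

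Of 23 genes for ubiquitin, shuttle factors and control of the proteasome, 6 were marked in the DMSO library and 20 in the A939572 library, with a median difference of 45.2 points. Nfe2l1, the transcription factor that raises proteasome genes when proteasome activity falls, was covered over 6.57% and 99.8%. Ubqln2, a shuttle factor, was covered over 0% and 92.7%, by weak peaks only. The ubiquitin gene Ubb was covered over 100% by strong peaks in both lists. Ube3a, a ubiquitin ligase, was covered over 73.4% and 85.9% with all peaks, and over 0% and 74.5% with strong peaks alone.

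Of 14 genes of antigen processing, 3 were marked in the DMSO library and 13 in the A939572 library, with a median difference of 59.4 points. The MHC class I genes H2-D1 and H2-K1 had no control peak and were covered over 99.4% and 87.6% in the A939572 library. B2m, which codes for the light chain of MHC class I, was covered over 100% in both lists. Nlrc5, the activator of MHC class I genes, was covered over 6.45% and 30.6%. No gene of these 3 lists was at least 25 points higher in the DMSO library, against 3.07% of all protein-coding genes. With so few genes, that count was near the background.

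**Figure D5:**
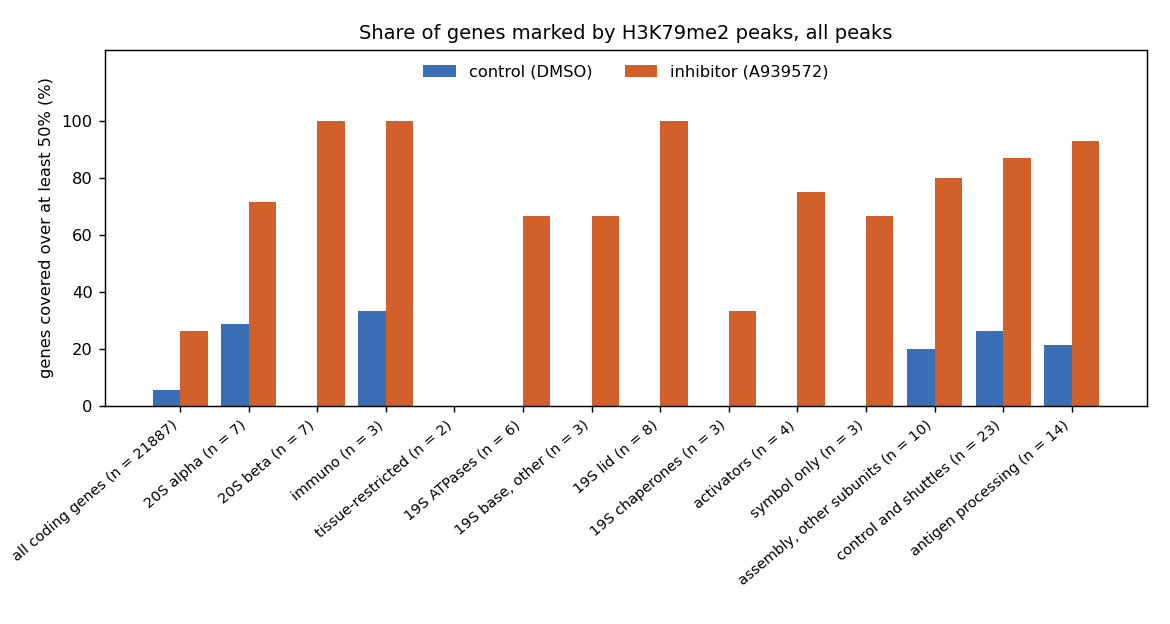
Share of genes covered over at least 50% of the body (y axis, %) in the DMSO and A939572 libraries, for all protein-coding genes, each class of proteasome genes and the 3 related lists, with the number of genes in each. Bars are single libraries without error bars. The tissue-restricted class has no marked gene in either list, and every other class has a taller inhibitor bar.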

How the data were processed

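H3K79me2 ChIP-seq was done on 2 ChIP libraries, 1 per condition, with 2 inputs that are not analysed here. The submitters' processing notes name the build mm10 and the tools MACS2 2.1.0 and BWA, with no role for each, and caller options and use of the input were not given in the sources used here. For each peak the authors deposited a position, a fold enrichment ratio, −log10 p, −log10 q and a score that equals the whole part of 10 times −log10 q. The lowest deposited −log10 p was 1.00 in both lists. Depth is not in the lists.

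Touching peaks were merged and intersected with gene bodies of RefSeq GRCm38.p6, the assembly of mm10, with pandas 2.3.3, scipy 1.17.1 and numpy 2.4.6 under Python 3.11.15, and plotted with matplotlib 3.10.9. The gene table has no strand, so starts and strands came from the RefSeq promoter table, which held 39 of the 46 genes and 17492 coding genes. The code was checked on simulated peaks. The genes and gene lists were chosen with earlier results of these data known. Values are given in full for genes with a strong control peak, genes not marked in the A939572 library, genes higher in the DMSO library, the largest and smallest difference of each class, genes that overlap another coding gene or share a peak with another member, and the 2 largest and 2 smallest differences of each related list. Other values named were chosen after they were seen. Alternatives covered peak strength, list length, merging distance, the definition of marked, gene window and gene overlap.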

Additional observations from a re-analysis of the deposited data

How the results depend on the processing

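No paired analysis was possible because each condition had 1 library, and for the same reason no replicate could be left out. The main counts were 3 of 46 genes marked in the DMSO library, 35 marked in the A939572 library, 40 at least 25 points higher in the A939572 library and 0 at least 25 points higher in the DMSO library, with a median difference of 51.7 points. The number marked in the DMSO library was 0 with peaks of q at most 0.05, 0 with −log10 q of at least 5, 0 with fold enrichment of at least 3, 36 when any covered base sufficed, 0 when 80% of the body was asked for, 10 over the better covered 5 kb end and 8 of 39 over the first 5 kb. The number marked in the A939572 library was 18 with −log10 q of at least 5, 16 with fold of at least 3 and 23 at 80% of the body. The number at least 25 points higher in the A939572 library was 24 and 21 under the first 2 of these, and the median difference was 36.5 and 7.95 points. The number higher in the DMSO library was 1 over the better covered 5 kb end, Psma8. Stricter peaks leave fewer bases covered by construction, in all protein-coding genes as well. The shares of all protein-coding genes are not given here for −log10 q of at least 5, fold of at least 3, 80% of the body or the better covered end. The counts under those settings are therefore not set against a background. Without the 18 genes whose main inhibitor peak also reaches another coding gene, an alternative chosen after seeing the data, 19 of 28 genes were marked in the A939572 library and 23 of 28 were at least 25 points higher there. No difference changed sign. Limiting the DMSO library to the covered length of the A939572 library, merging peaks within 1 kb, leaving out genes that overlap another coding gene and leaving out the 3 symbol-only genes kept all of these counts within 1.5 times. With q at most 0.05, Psmb7, Psmc4 and Psmd1 fell below the 25-point difference, to 6.07, 22.5 and 15.9 points, and Psma1, Psma4 and Psmc3 rose above it, from 15.3, 22.2 and 10.49 points to 92.7, 32.6 and 36.5 points. Unknown depth limits every comparison between the lists.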

Other observations

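Of 6 proteasome pseudogenes in the RefSeq table, 5 had no peak in either list, namely Psma5-ps, Psmb5-ps, Psmb6-ps, Psmb6-ps2 and Psmb7-ps2. Psmb7-ps1 (chrX:96148800-96149199) was covered over 100% in both lists, by weak peaks in the DMSO library and strong peaks in the A939572 library. Among all protein-coding genes, 55.3% overlapped a peak in the DMSO library and 51.4% in the A939572 library. The share over all pseudogenes is not given here, so the count is not read as a trait of these 6. Reads of a pseudogene can be shared with its parent gene, and how such reads were placed is not given in the sources used here.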
